A study of Mus musculus with 12 samples.

Results

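The genes described here are the 10 that make, break down and regulate the polyamines putrescine, spermidine and spermine in mouse cells. They were chosen by symbol, each matched 1 Ensembl gene ID among the 39179 of the deposited table, and all 10 passed the filter on low values that left 16197 genes for testing. Whole prostates came from mice aged 4 months on a mixed 129/SvImJ and C57Bl/6J background. All mice had received paraquat, a herbicide that makes cells produce superoxide, and no untreated mice are included here. The 6 wild-type and 6 null libraries differ in genotype, +/+ or -/- for the gene under study, so each comparison is between genotypes under paraquat. RNA was poly-A selected and sequenced, and values are normalized log2 values as deposited, so that a difference of 1 is a 2-fold change.

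The 6 libraries of each genotype formed 2 sets with close profiles, libraries 1 to 3 and libraries 4 to 6, when their values were clustered. Pairs of libraries from 1 set had a median absolute difference of 0.0776 to 0.141, and pairs from the 2 sets of a genotype 0.274 to 0.352. The labels do not say which libraries came from separate animals. Tests are therefore given over the 12 libraries (limma, n = 6 per genotype), where p-values measure only the spread between these libraries, which may be technical, and over the 4 set means (limma, n = 2 per genotype). "Rose" and "fell" are used of single genes where both tests passed an adjusted p of 0.05, and "higher" and "lower" of the values themselves. Estimated depth was 14800000 to 21700000 reads per library.

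Polyamines are small, positively charged molecules that bind nucleic acids and are needed for growth, and the prostate is known for making and secreting large amounts of them. Ornithine decarboxylase turns ornithine into putrescine. Spermidine synthase and then spermine synthase add aminopropyl groups that come from decarboxylated S-adenosylmethionine. Breakdown runs back from spermine to putrescine, either through acetylation and oxidation or by direct oxidation of spermine, and the oxidation steps release hydrogen peroxide. Antizymes bind ornithine decarboxylase and send it to the proteasome, and the antizyme inhibitor, a relative of the decarboxylase without its activity, binds antizyme in its place. Much of this control acts on translation and protein turnover, which RNA levels do not show.

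All 4 genes of synthesis were lower in the null, with differences of -1.53 for Srm, -1.33 for Sms, -1.0 for Odc1 and -0.66 for Amd1. Of the 3 breakdown genes, Smox was higher while Sat1 and Paox were lower. Among the regulators of ornithine decarboxylase, the antizyme inhibitor gene Azin1 was higher and the antizyme genes Oaz1 and Oaz2 were lower. Over the 12 libraries 8 of the 10 genes were called lower, where 31.8% of all tested genes were, and 2 were called higher, where 34.1% of all tested genes were. With libraries scaled to equal totals 4 were called lower, where 16.1% of all tested genes were, and with the set as a random block 5 were, where 17.1% were. Over the set means 1 gene, Srm, was called lower, where 1.93% of all tested genes were, and 0 were called higher by limma, where 2.15% were. At an unadjusted p under 0.05, 6 of the 10 passed limma over the set means. The share of all tested genes at that threshold was not taken, so this count has no baseline. The median difference of the 10 genes was -0.49, against 0.05 over all tested genes. The libraries of the genotypes did not overlap for 8 of the 10 genes, 6 lower and 2 higher, where 22.7% and 21.5% of tested genes were separated in those directions. In all 4 comparisons of a null with a wild-type set mean, 7 members were lower and 2 higher, where 32.4% and 34.8% of tested genes were. Genes of 1 pathway are not independent of each other, and in whole tissue fewer cells of a type and less RNA per cell cannot be told apart.

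**Figure D1:**
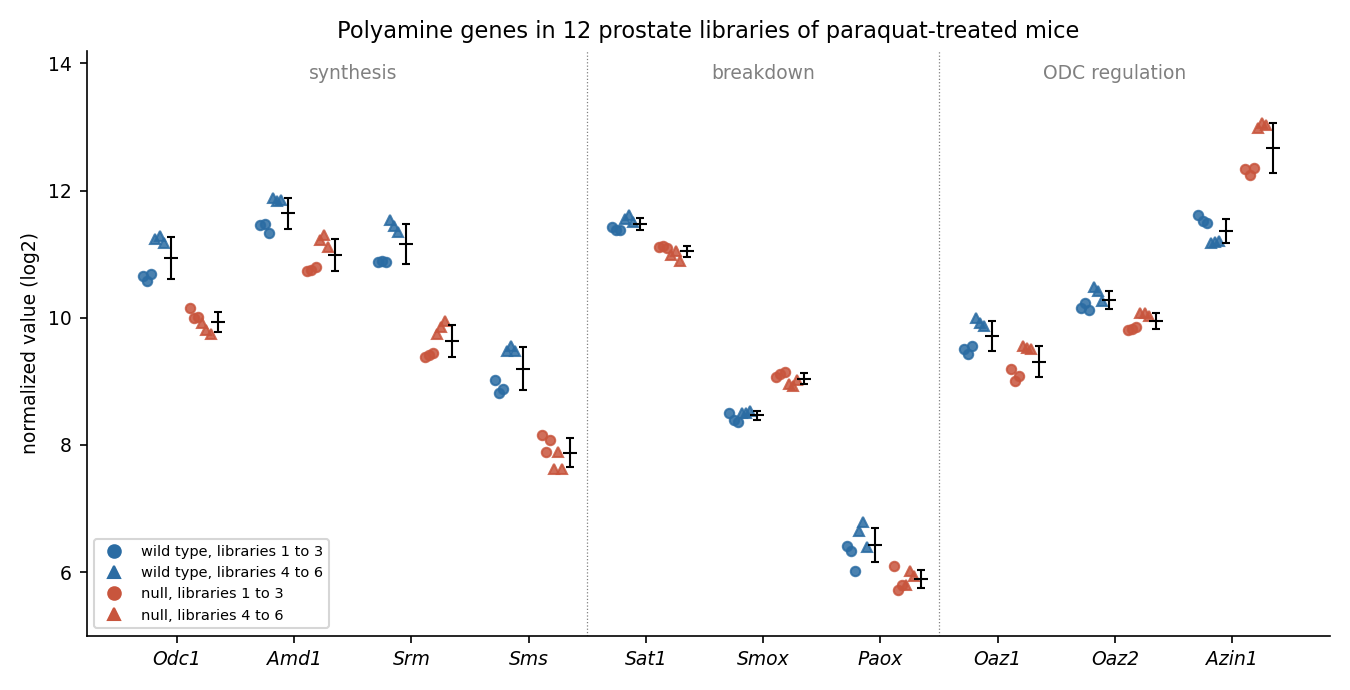
Normalized log2 value (vertical axis) of each polyamine gene (horizontal axis) in every library, wild type in blue and null in red, circles for libraries 1 to 3 and triangles for libraries 4 to 6, with black bars for the mean ± SD of 6 libraries. The genotypes are separated for Srm, from 10.87 upward in wild type and up to 9.95 in the null, and in the opposite direction for Azin1, while the libraries of Oaz1 and Paox overlap.

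Srm, encoding spermidine synthase (ENSMUSG00000006442, GRCm38 chromosome 4, 148591503 to 148594993), had a lowest value of 10.87, a median of 11.12 and a highest value of 11.54 in wild type. In the null its values were 9.39, 9.59 and 9.95 in the same order. The genotypes were thus separated by nearly a full log2 unit, and within each genotype libraries 4 to 6 were the higher set. Srm fell by 1.53 (SE 0.15 over the 12 libraries, adjusted p = 2.1e-06; SE 0.27 over the set means, adjusted p = 0.0361), to 34.6% of the wild-type level. The smallest of the 4 differences between a null and a wild-type set mean was -1.03. No other member was called over the set means. With limma's trend on expression level left out, Srm too missed the threshold there (adjusted p = 0.0716).

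Sms, encoding spermine synthase (ENSMUSG00000071708, chromosome X, 157443855 to 157492287), ran from 8.81 through a median of 9.24 to 9.55 in wild type and from 7.62 through 7.89 to 8.16 in the null. All null libraries lay below all wild-type libraries. The difference was -1.33 (SE 0.15, limma adjusted p = 9.74e-06 over the 12 libraries; SE 0.28, adjusted p = 0.0581 over the set means), a null level of 39.9% of wild type. The pseudogene Sms-ps is identical to the Sms transcript over 1101 aligned bases, and the pseudogene entries of Sms held 36.4% to 52.7% of the sum of gene and copies. They were lower in the null as well, averaging 8.90 ± 0.09 in wild-type and 7.49 ± 0.10 in null libraries (SD, n = 6). When gene and copies were added up, a step chosen after seeing the data, the difference was -1.37 and also passed over the set means (limma adjusted p = 0.0255).

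Odc1, which encodes ornithine decarboxylase (ENSMUSG00000011179, chromosome 12, 17544794 to 17551505), ran from 10.58 through a median of 10.93 to 11.28 in wild type. In the null it ran from 9.74 through 9.96 to 10.16. The difference was -1.0 (SE 0.13, limma adjusted p = 3.53e-05 over the 12 libraries; SE 0.25, adjusted p = 0.076 over the set means), which is 49.9% of the wild-type level. The wild-type sets stood apart, at 10.64 for libraries 1 to 3 and 11.23 for libraries 4 to 6, and the null sets less so, at 10.06 and 9.82. Differences between a null and a wild-type set therefore ranged from -0.59 to -1.42, all in 1 direction. The 7 annotated Odc1 pseudogenes of the table together held 13.4% to 27.0% of the sum with Odc1.

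Amd1, encoding the decarboxylase of S-adenosylmethionine (ENSMUSG00000075232, chromosome 10, 40287458 to 40302186), was the synthesis gene with the smallest difference. It ran from 11.34 through a median of 11.66 to 11.88 in wild type and from 10.73 through 10.96 to 11.30 in the null. The highest null library was thus just under the lowest wild-type library. The difference was -0.66 (SE 0.13, limma adjusted p = 0.000769 over the 12 libraries; SE 0.25, adjusted p = 0.144 over the set means), and between null libraries 4 to 6 and wild-type libraries 1 to 3 it was -0.22. Amd2 is 99.6% identical to Amd1 over 3202 aligned bases, so reads of the pair may have been exchanged. Amd2 itself averaged 7.0 ± 0.37 in wild-type and 7.16 ± 0.10 in null libraries (SD, n = 6), and was not called (limma adjusted p = 0.363 over the 12 libraries).

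The DNA before the starts of Odc1, Amd1 and Sms is shown because these synthesis genes were lower together. RefSeq's promoter table (GRCm38.p6) matched 8 of the 10 members, all but Srm and Azin1, and each window is cut where the first GENCODE transcript begins, which left none for Smox, Paox and Oaz2. Another Sms entry started inside the annotated gene and left no window either, so Sms is shown for 1 entry only. Capitals mark matches, searched on both strands, to 4 short motifs. These are the E-box, spelled CACGTG, which reads the same on both strands, the TATA element, spelled TATAA, the GC box, spelled GGGCGG, and the CCAAT box. Matches to different motifs did not overlap in these windows.
Odc1, chr12:17544623-17544793, plus strand: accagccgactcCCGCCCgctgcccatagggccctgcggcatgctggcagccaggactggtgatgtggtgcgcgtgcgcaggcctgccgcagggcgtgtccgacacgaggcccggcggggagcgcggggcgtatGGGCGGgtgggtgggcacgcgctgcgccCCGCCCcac
Amd1, chr10:40302189-40302438, minus strand: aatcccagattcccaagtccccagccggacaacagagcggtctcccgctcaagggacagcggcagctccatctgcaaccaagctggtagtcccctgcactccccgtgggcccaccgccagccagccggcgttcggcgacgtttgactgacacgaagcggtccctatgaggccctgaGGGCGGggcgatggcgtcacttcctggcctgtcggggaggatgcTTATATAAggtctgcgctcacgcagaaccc
Sms, chrX:157492288-157492537, minus strand: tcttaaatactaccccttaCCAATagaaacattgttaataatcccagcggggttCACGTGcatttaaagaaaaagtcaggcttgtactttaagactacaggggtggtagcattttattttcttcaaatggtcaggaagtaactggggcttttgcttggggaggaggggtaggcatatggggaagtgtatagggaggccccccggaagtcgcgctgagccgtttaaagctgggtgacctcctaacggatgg
The Odc1 window held 3 matches to the GC box and the Amd1 window 1, next to a TATA element that matched on both strands. The Sms window held neither of these and had 1 E-box and 1 CCAAT. Among 32851 promoter windows of 250 bases, 32.7% held a GC box, 22.8% a TATA element, 33.8% a CCAAT box and 6.02% an E-box. At the 171 bases shown for Odc1 the share with a GC box was 29.8%. No motif was shared by the 3 windows, and a match is a description of the letters only.

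Smox, whose product oxidises spermine directly (ENSMUSG00000027333, chromosome 2, 131491496 to 131525922), ran from 8.36 through a median of 8.50 to 8.54 in wild type and from 8.93 through 9.04 to 9.14 in the null. It was the breakdown gene with higher values in every null library. The difference was 0.58 (SE 0.06, limma adjusted p = 5.11e-06 over the 12 libraries; SE 0.20, adjusted p = 0.128 over the set means), or 1.49-fold. Its sets lay close together, at 8.42 and 8.51 in wild type and at 9.11 and 8.97 in the null.

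Sat1, encoding spermidine/spermine acetyltransferase, the first step of the acetylation route (ENSMUSG00000025283, chromosome X, 155213132 to 155216449), ran from 11.38 through a median of 11.47 to 11.62 in wild type and from 10.90 through 11.07 to 11.13 in the null. The libraries did not overlap. The difference was -0.43 (SE 0.06, limma adjusted p = 6.02e-05 over the 12 libraries; SE 0.19, adjusted p = 0.177 over the set means). It did not pass over the 12 libraries with the transcript length trend removed (-0.14, adjusted p = 0.137) or with libraries scaled to equal totals (-0.12, adjusted p = 0.0574). Paox, encoding the oxidase that acts on the acetylated polyamines (ENSMUSG00000025464, chromosome 7, 140115799 to 140137224), was the member with the lowest values, 6.01 to 6.78 in wild type and 5.72 to 6.09 in the null. Its genotypes overlapped, and the difference was -0.54 (SE 0.14, limma adjusted p = 0.00365 over the 12 libraries; SE 0.31, adjusted p = 0.273 over the set means). It did not pass over the 12 libraries with equal library totals (-0.22, limma adjusted p = 0.137) or with the set as a random block (adjusted p = 0.335). Gm19680, a processed pseudogene 99.9% identical to Paox over 1358 aligned bases, averaged 6.83 ± 0.32 in wild-type and 6.42 ± 0.18 in null libraries (SD, n = 6), above Paox in 11 of 12 libraries.

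Azin1, encoding antizyme inhibitor (ENSMUSG00000037458, chromosome 15, 38487427 to 38519266), had the largest difference among the members that were higher. It ran from 11.17 through a median of 11.35 to 11.61 in wild type and from 12.24 through 12.67 to 13.06 in the null. Every null library was above every wild-type library. The difference was 1.30 (SE 0.16, limma adjusted p = 1.96e-05 over the 12 libraries; SE 0.30, adjusted p = 0.0657 over the set means), or 2.47-fold. Its null sets differed by 0.72, at 12.31 and 13.03, so that the 4 differences between sets ranged from 0.77 to 1.84. Over the set means it passed limma with quantile normalization (1.54, adjusted p = 0.0311) and with equal library totals (1.62, adjusted p = 0.0301). Equal totals also moved the median of all tested genes, from 0.05 to 0.37.

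Oaz1, the gene of antizyme 1 (ENSMUSG00000035242, chromosome 10, 80826656 to 80829290), ran from 9.43 through 9.72 to 9.99 in wild type and from 9.01 through 9.35 to 9.55 in the null, with overlap. The difference was -0.40 (SE 0.13, limma adjusted p = 0.0147 over the 12 libraries; SE 0.25, adjusted p = 0.3 over the set means), and null libraries 4 to 6 were 0.03 above wild-type libraries 1 to 3. Without wild-type libraries 4 to 6 (-0.19, adjusted p = 0.252) or null libraries 1 to 3 (-0.18, adjusted p = 0.241) it was no longer called, nor with equal library totals (-0.08, adjusted p = 0.565). The processed pseudogene Oaz1-ps, 99.3% identical to Oaz1 over 685 aligned bases, was listed above Oaz1 in 12 of 12 libraries, by 4.15 to 5.91 times on the linear scale. Oaz1-ps averaged 12.17 ± 0.18 in wild-type and 11.47 ± 0.30 in null libraries (SD, n = 6). With both entries added, a step chosen after seeing the data, values were 12.19 to 12.60 in wild type and 11.47 to 12.06 in the null without overlap, a difference of -0.65 (limma adjusted p = 0.00079 over the 12 libraries, 0.158 over the set means).

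**Figure D2:**
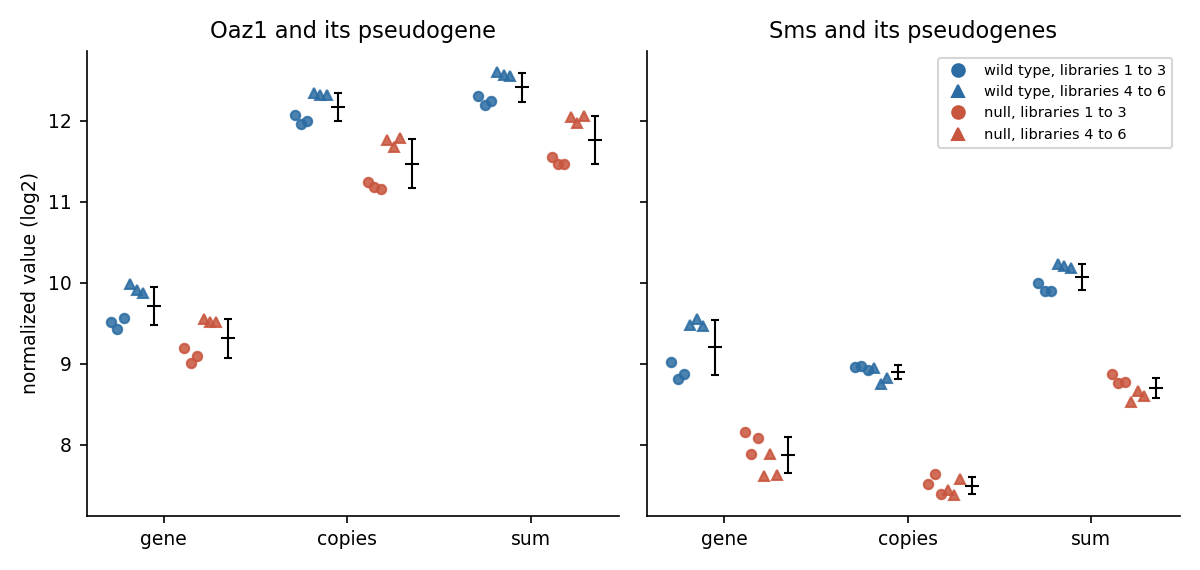
Normalized log2 values (vertical axis) of Oaz1 (left) and Sms (right), of their near-identical pseudogenes together and of the sum of both, for each library, with black bars for the mean ± SD of 6 libraries per genotype. The Oaz1 pseudogene lies above Oaz1 in all 12 libraries, and the sums of Oaz1, 12.19 to 12.60 in wild type and 11.47 to 12.06 in the null, do not overlap although the gene alone does.

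Oaz2, the gene of antizyme 2 (ENSMUSG00000040652, chromosome 9, 65668001 to 65690300), had the smallest difference of the members. It ran from 10.13 through 10.25 to 10.48 in wild type and from 9.81 through 9.95 to 10.07 in the null. The groups were separated by a narrow gap, and the difference was -0.34 (SE 0.08, limma adjusted p = 0.00205 over the 12 libraries; SE 0.20, adjusted p = 0.273 over the set means). With the transcript length trend removed it was -0.11 (adjusted p = 0.0691), and with equal library totals -0.02 (adjusted p = 0.815). Oaz3, the antizyme gene known from testis, averaged 4.34 ± 0.43 in wild-type and 3.81 ± 0.39 in null libraries, and Azin2, the second antizyme inhibitor gene, at 7.03 ± 0.24 and 6.96 ± 0.21 (SD, n = 6). Neither was called over the 12 libraries (limma adjusted p = 0.0614 for Oaz3 and 0.651 for Azin2). Of the 4 tested paralogs, Sat2 alone was called over the 12 libraries, as lower. Among all tested genes the shares there were 31.8% lower and 34.1% higher, so 1 lower call among 4 does not set the paralogs apart. The Sat2 difference was -0.28 (limma adjusted p = 0.0331 over the 12 libraries, 0.513 over the set means). The product of Sat2 is named for its likeness to Sat1.

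**Figure D3:**
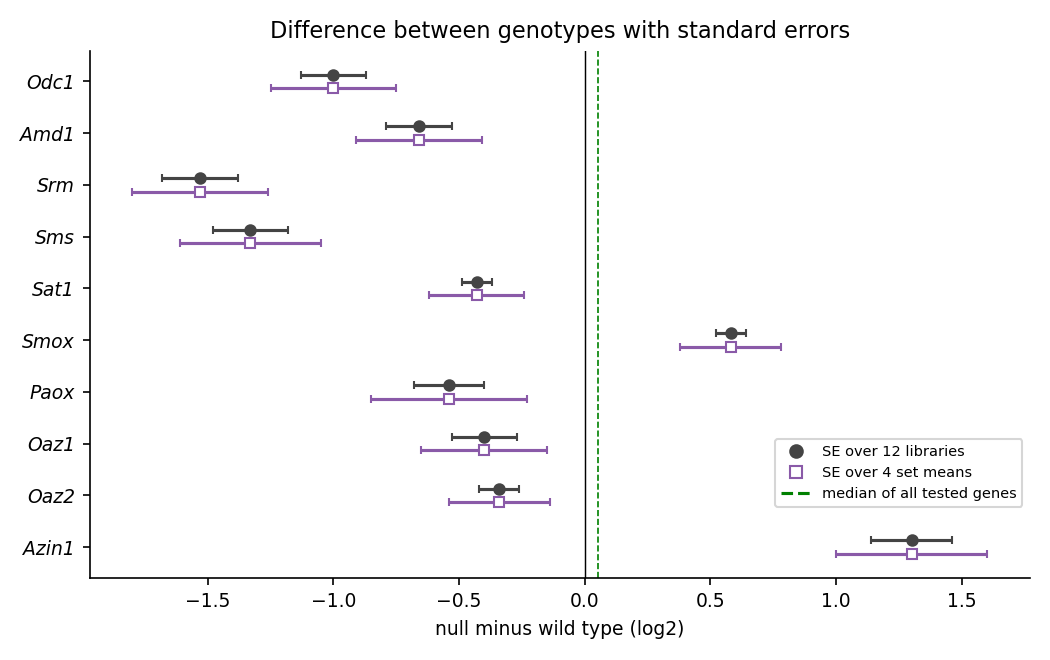
Difference between genotypes, null minus wild type on the log2 scale (horizontal axis), for each polyamine gene (vertical axis), with SE bars from limma over 12 libraries (filled circles) and over 4 set means (open squares) and a dashed line at the median of all tested genes, 0.05. Srm is lowest at -1.53, Smox and Azin1 lie to the right of the dashed line, and the other 8 lie to its left.

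How libraries are scaled bears on these differences. Scaling to equal totals moved the median of all tested genes from 0.05 to 0.37 and the calls over all genes from 5518 higher and 5152 lower to 8611 higher and 2608 lower. Upper-quartile centring moved that median to 0.13, and totals without the 50 most abundant genes moved it to 0.20, with 6804 called higher and 4034 lower. These 3 scalings shift every gene by the same amount and so leave the order of genes as it was. Quantile normalization, which can change that order, left 8 members below and 2 above the median of all tested genes.

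A ratio between 2 genes of the same library stays the same when the whole library is multiplied by a factor. The log2 ratio of Odc1 to Azin1 ran from -0.95 to 0.09 in wild type and from -3.30 to -2.18 in the null. The genotypes did not overlap and differed by -2.31 (n = 6 per genotype, two-sided exact permutation test, adjusted p = 0.00433 over 6 ratios). The raw p of 0.00216 is the smallest that 6 libraries against 6 can give, and set means alone could not go below 0.333. Over the sets this ratio was -0.90 and 0.04 in wild type and -2.25 and -3.21 in the null. The ratio of Sat1 to Smox was the steadiest, at 2.98 and 3.05 in the wild-type sets and at 2.0 and 2.01 in the null sets, a difference of -1.01 (exact permutation test, adjusted p = 0.00433). It ran from 2.93 to 3.12 in wild-type libraries and from 1.88 to 2.12 in null libraries.

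For Odc1 to Oaz1 the difference was -0.60 (exact permutation test, adjusted p = 0.00433), with wild-type libraries at 1.13 to 1.37 and null libraries at 0.23 to 0.99. When each gene was summed with its near-identical copies, this difference was -0.23 (exact permutation test, adjusted p = 0.295), and the null sets, at -1.01 and -1.80, lay on both sides of the wild-type sets, at -1.25 and -1.11. The ratios of Srm to Sms (-0.20, adjusted p = 0.331), Amd1 to Odc1 (0.34, adjusted p = 0.14) and Sat1 to Paox (0.10, adjusted p = 0.331) did not pass the exact permutation test. Sat1 to Paox did pass with the transcript length trend removed (0.61, adjusted p = 0.0195, exact permutation test). In the null the ratios of the first 2 of these pairs depended on the set, with Srm to Sms at 1.37 in libraries 1 to 3 and 2.14 in libraries 4 to 6, and Amd1 to Odc1 at 0.70 and 1.40. For Odc1 to Oaz1 the difference was -0.27 without null libraries 4 to 6 and -0.94 without null libraries 1 to 3, both past the exact permutation test (adjusted p = 0.0179). Without null libraries 4 to 6, Srm to Sms passed (-0.59, exact permutation test, adjusted p = 0.0179), and without null libraries 1 to 3, Amd1 to Odc1 passed (0.69, adjusted p = 0.0179), as it did without null library 1 alone (0.44, adjusted p = 0.0357). Leaving out a null set keeps only 1 set of close null libraries, found from these values. Those p-values measure the spread between libraries and not between animals.

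**Figure D4:**
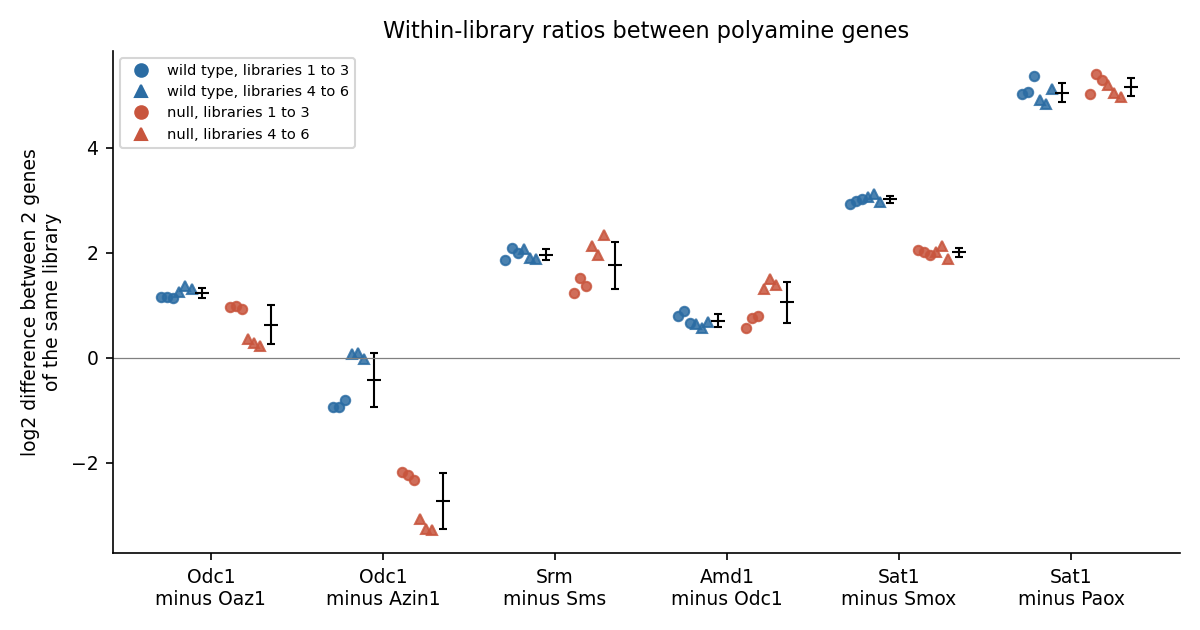
Log2 ratio between 2 polyamine genes of the same library (vertical axis) for 6 pairs (horizontal axis), wild type in blue and null in red, circles for libraries 1 to 3 and triangles for libraries 4 to 6, with black bars for the mean ± SD of 6 libraries. Sat1 minus Smox is at 2.93 to 3.12 in wild type and 1.88 to 2.12 in the null, while Srm minus Sms and Amd1 minus Odc1 split by set within the null.

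The sets of 1 genotype also differed in these genes, which is given as a description because the sets were found from the values. In wild type, libraries 4 to 6 were above libraries 1 to 3 for 9 of the 10 members, by 0.59 for Odc1, 0.57 for Srm and 0.60 for Sms, and below for Azin1 (-0.35). In the null, 6 members were higher in libraries 4 to 6 and 4 were lower. Amd1 (0.45), Srm (0.43) and Azin1 (0.72) were higher there, and Odc1 (-0.24) and Sms (-0.33) were lower. The 4 synthesis genes thus moved together between the wild-type sets and in different directions between the null sets.

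Levels of different genes can be compared once divided by transcript length, here that of the longest annotated transcript. On that per-kilobase log2 scale the order in wild type was Sat1 (11.04), Srm (10.74), Amd1 (9.96), Odc1 (9.79), Oaz2 (9.40), Azin1 (9.08), Oaz1 (8.37), Sms (7.31), Smox (7.26) and Paox (4.21). In the null it was Sat1 (10.61), Azin1 (10.38), Amd1 (9.31), Srm (9.21), Oaz2 (9.06), Odc1 (8.79), Oaz1 (7.98), Smox (7.84), Sms (5.98) and Paox (3.67). Azin1 moved from place 6 to place 2, and Srm from place 2 to place 4. Neighbours that were closer than the larger of their SDs between libraries were Sat1 and Srm, Amd1 and Odc1, and Sms and Smox in wild type. In the null they were Sat1 and Azin1, Amd1 and Srm, Srm and Oaz2, and Oaz1 and Smox. The places of Oaz1, Sms and Paox leave out the reads listed under their pseudogenes.

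The 5 tested genes whose values followed Srm most closely over the 12 libraries were Guk1 (Pearson r = 0.998), Nudt2 (0.998), Sec11c (0.997), Tpi1 (0.997) and H13 (0.997). Their differences were -1.54, -1.28, -0.88, -0.94 and -0.90 in that order. These correlations are a description over 12 libraries that share genotype and set.

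Genes around the pathway were taken from 7 lists with 50 genes, of which 45 were tested. Over the 12 libraries 9 were called higher and 20 lower, where 34.1% and 31.8% of all tested genes were, so the share called higher was below that over all genes. Over the set means 1 was called higher and 3 lower, where 2.15% and 1.93% of all tested genes were. Sbpl, counted among the 20 and among the 3, passed the filter on low values through its wild-type libraries alone. Its calls therefore carry no weight. The 45 genes, Sbpl included, had a median of -0.25 against 0.05 over all tested genes. The gene with the largest difference of the 45 was Atp13a4, a P-type ATPase of the subfamily that carries polyamines out of lysosomes and endosomes. Atp13a4 rose by 4.66, from a wild-type mean of 5.12 ± 0.36 to a null mean of 9.78 ± 0.66 (SD, n = 6), with an SE of 0.45 over the set means (limma adjusted p = 0.0084). It was at 9.18 and 10.39 in the null sets, against 5.38 and 4.86 in the wild-type sets. Slc12a8, a cation-chloride cotransporter family gene that has been tied to polyamine uptake, fell by 2.0 (SE 0.31, limma adjusted p = 0.0257 over the set means), from 7.36 ± 0.15 to 5.36 ± 0.26 (SD, n = 6). Slc7a2, a carrier of arginine and ornithine, was higher by 1.88 and Slc3a2, the heavy chain of amino acid exchangers, lower by a difference of -0.87, both called over the 12 libraries and not over the set means (limma adjusted p = 0.0546 and 0.0717). In all, 5 of 11 tested transport genes were called higher and 3 lower over the 12 libraries, where 34.1% and 31.8% of all tested genes were.

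Among genes of ornithine and arginine metabolism, 1 of 9 was called higher and 4 lower over the 12 libraries (34.1% and 31.8% of all tested genes). Pycr1, which makes proline from the intermediate it shares with ornithine, fell by 2.59 (SE 0.26, limma adjusted p = 0.00873 over the set means), from 10.64 ± 0.25 to 8.04 ± 0.26 (SD, n = 6). Aldh18a1, which makes that intermediate from glutamate, differed by -0.97, and Asl, which releases arginine in the urea cycle, by -1.11. Both were called over the 12 libraries and missed the threshold over the set means, at a limma adjusted p of 0.0936 and 0.05 respectively. Gatm, whose enzyme uses arginine for creatine synthesis and frees ornithine, was higher by 0.83 (limma adjusted p = 9.46e-07 over the 12 libraries, 0.0962 over the set means).

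The list for S-adenosylmethionine and for salvage of methylthioadenosine, the by-product of both aminopropyl transfers, had 5 of 9 genes called lower and 0 higher by limma over the 12 libraries (31.8% and 34.1% of all tested genes), and 0 of either kind over the set means. Adi1, a late step of that salvage, differed by -0.83 (limma adjusted p = 8.47e-08 over the 12 libraries, 0.0612 over the set means). Mat2a, which makes S-adenosylmethionine, averaged 13.82 ± 0.17 in wild-type and 13.18 ± 0.06 in null libraries (SD, n = 6), a difference of -0.64. Enoph1 (-0.36) and Apip (-0.49), other salvage genes, were also called over the 12 libraries.

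Spermidine is the donor for hypusine, a modified lysine of the translation factor eIF5A. Of the 4 hypusine genes, Dhps (-0.79) and Dohh (-0.87), which encode the 2 enzymes of the modification, and Eif5a (-0.80) were called lower and Eif5a2 (1.01) higher over the 12 libraries. Of all tested genes, 31.8% were called lower and 34.1% higher there. Over the set means none of the 4 was called, with limma adjusted p from 0.0676 for Dohh to 0.198 for Eif5a2. Dhps, Dohh and Eif5a did not overlap between genotypes, where 22.7% of all tested genes were separated with lower values in the null. For Eif5a2 the null sets were at 6.91 and 5.65, and the lower of them was close to the wild-type sets at 5.42 and 5.13.

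In the list for acetylpolyamine and amine oxidation, 2 of 5 tested genes were called higher and 1 lower over the 12 libraries, near the 34.1% and 31.8% of all tested genes, and none over the set means. Hdac10, a deacetylase of acetylspermidine, differed by -0.52 (limma adjusted p = 0.000128 over the 12 libraries, 0.145 over the set means). Aoc3 (0.67) and Maob (0.77), amine oxidases of vessels and mitochondria, were higher, and Aldh9a1 (-0.03) was not called. Of the secreted binders, Sbp (-3.37) and Tgm4 (-2.23) were called lower over the 12 libraries (limma adjusted p = 1.46e-06 and 0.000111). Neither passed over the set means (SE 1.18 and 1.0, limma adjusted p = 0.125 and 0.183). Sbp, encoding spermine binding protein of the prostate secretion, was at 19.04 and 19.85 in the wild-type sets and 16.53 and 15.62 in the null sets, and Tgm4, a prostate transglutaminase, at 18.77 and 17.88 against 15.47 and 16.72. The related gene Sbpl is given without a test, since all its null libraries, 2.56 to 3.95, lay under the filter value of 4. In wild type it was at 11.03 in library 1 and at most 7.38 in the others, and the difference was -3.98 with library 1 and -3.29 without it.

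**Figure D5:**
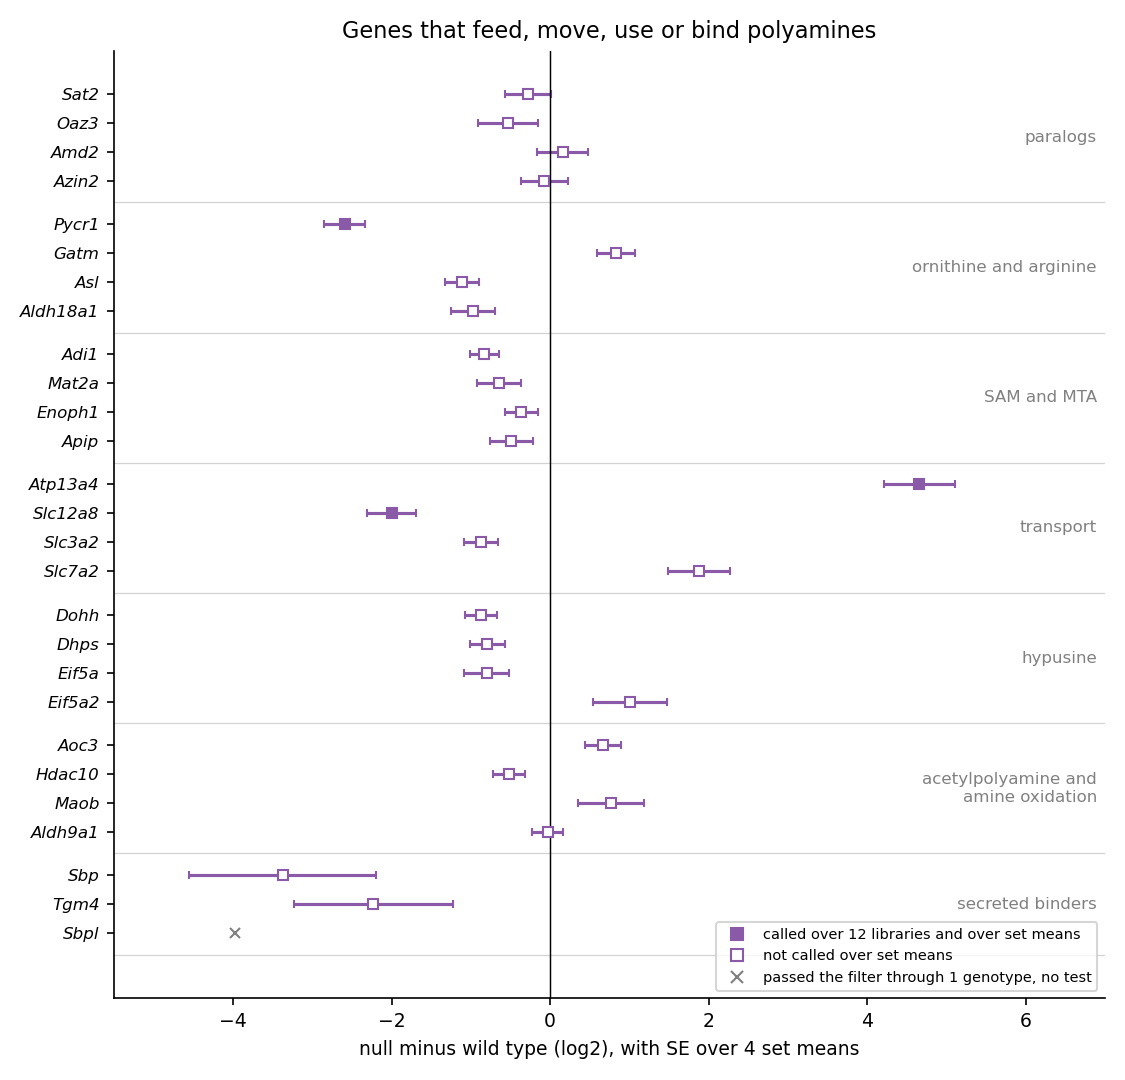
Difference between genotypes, null minus wild type on the log2 scale (horizontal axis), for the 27 named genes around the polyamine pathway (vertical axis), with SE bars from limma over 4 set means. Filled squares, called in both tests, are Pycr1 (-2.59), Atp13a4 (4.66) and Slc12a8 (-2.0), and a grey cross with no SE is Sbpl (-3.98), which passed the filter through wild type alone.

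Markers of other tissues and cell types moved with genotype in the same libraries. The 7 seminal vesicle markers summed to 0.000245% to 0.00112% of all linear values in wild type, to 16.2% to 16.4% in null libraries 1 to 3 and to 0.716% to 0.728% in null libraries 4 to 6. Svs2 was at 21.03 in null libraries 1 to 3 and 11.37 in null libraries 4 to 6, and Svs5, Svs6 and Pate4 differed in the same direction. In the other direction, Svs3a (11.78 and 13.65), Svs3b (11.38 and 11.65) and Svs4 (14.58 and 16.43) were higher in null libraries 4 to 6. Several of these markers passed the filter on low values only through the null libraries, so their calls are not counted. Counts in brackets below are limma calls over the 12 libraries, where 34.1% of all tested genes were called higher and 31.8% lower. For the lists with such counts, the set means gave 2 of 5 secretory markers called lower, and 1 of 4 basal and 2 of 4 adipocyte markers higher. In wild-type libraries 1 to 3 the adipocyte markers Plin1 (4.0) and Lep (3.7) lay near the filter value of 4. The shares of all tested genes there were 1.93% and 2.15%. No luminal, leukocyte, endothelial or smooth muscle marker was called over the set means. Prostate secretory markers (5 of 5 lower) summed to 7.70% to 10.1% in wild type and 1.09% to 1.17% in the null. Luminal epithelial markers (3 of 5 higher, 1 lower) summed to 0.203% to 0.255% and 0.209% to 0.274%, with overlap. Basal (3 of 4 higher, 1 lower), leukocyte (3 of 6 higher), endothelial (4 of 4 higher) and adipocyte markers (4 of 4 higher) had sums that were higher in the null without overlap. Smooth muscle markers (4 of 5 lower) had sums that overlapped. Of the 4 epididymis and vas deferens markers 2 were tested and both were higher. Crisp1, a defining epididymal gene that the filter left out, was at 1.8 and 2.37 in the wild-type sets and at 14.23 and 3.61 in the null sets, and Lcn5 was at 2.77 or less in every set. Null libraries 1 to 3 had the largest seminal vesicle sum. Leaving them out keeps only 1 null set of close libraries, so differences without tests are given for the remaining 9 libraries. The sum of that set, 0.716% to 0.728%, was still above wild type. Srm was then at -1.31, Sms at -1.49, Odc1 at -1.12, Amd1 at -0.43, Smox at 0.50 and Azin1 at 1.66. Sat1 was at -0.50, Paox at -0.52, Oaz1 at -0.18 and Oaz2 at -0.23. The part of the other cell types in these differences was not tested.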

How the data were processed

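The authors deposited 1 table of normalized log2 values per Ensembl gene and library. The submitters' processing notes list CASAVA 1.8.2, TopHat, Cufflinks, DESeq and 2 builds, mm9 and GRCm38.p2, with no role for either build. Treatment of strand and of reads with several matches: not given in the sources used here. Values of antisense or overlapping genes and of near-identical copies are therefore uncertain. Values in the deposited log2 table are not counts, so no count-based test was run. On the linear scale, values from 2353 to 5793 gave whole reads within 0.1 for 100% of values per library, against 20% by chance, and the steps gave the estimated depths. Lower values were not used for this estimate.

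Genes were matched to GENCODE M21 (GRCm38) by ID, 95.99% of them, and groups were taken from the genotype label. Genes that reached 4 in 6 libraries were tested with limma 3.58.1 (R 4.3.3), two-sided with trend (Benjamini-Hochberg over all tested genes, threshold 0.05), over the 12 libraries and over the means of 2 sets per genotype from average-linkage clustering. No pseudocount was added. Many genes lie near a low floor of the table, where changes can be understated. The fits were tested on simulated data with independent noise in each library and no sets. That simulation cannot show how often sets of close libraries lead to false calls. Near-identical copies were annotated pseudogenes with at least 90% identity over 450 bases, or coding genes with at least 98%, found with blastn 2.17.0 among GENCODE transcripts. Python 3.11.15 made summaries and figures. Named genes are the 10 members, up to 4 tested genes per related list, by lowest 12-library limma p, and the 5 genes most correlated with the member of largest difference. The members, lists and rules were chosen with earlier results of these data known. Alternatives were other scalings, filters, spread models and thresholds, and leaving out libraries or sets. The targeted gene is not reported here.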

Additional observations from a re-analysis of the deposited data

Results flagged for a closer look

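Among 37 genes examined in groups of 6 libraries, 74 groups in all, 3 groups held a library whose gap to its nearest neighbour was, as a share of the group's range, over Dixon's 95% limit for 6 values. Chance alone gives about 1 such group in 20. None of the 10 members was among them. Sbpl was at 11.03 in wild-type library 1, far above the other 5 wild-type libraries, and at 2.56 in null library 4, below the other null libraries. Slc12a8 was at 4.87 in null library 5, below the other null libraries and in the direction of its difference between genotypes.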

How the results depend on the processing

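Over the 12 libraries, 2 members were called higher and 8 lower, and leaving out any 1 library gave 2 and 8 each time. With equal library totals 4 were called lower (16.1% of all tested genes), and with the set of libraries as a random block 5 were (17.1%). Over the set means, where 0 were called higher and 1 lower, equal library totals gave 2 higher and quantile normalization 1. Called lower there were 2 with quantile normalization, the stricter filter (a value of at least 6), the length trend removed or summed copies, and 0 with limma without trend or at an adjusted p of 0.01. Over the set means the share of all tested genes is given for the main fit only, at 2.15% higher and 1.93% lower. The counts under the alternatives there thus have no baseline. Equal library totals moved the median of all tested genes from 0.05 to 0.37. Of the related genes, 9 were called higher over the 12 libraries, against 15 with equal library totals, 4 with the random block and 5 without wild-type libraries 4 to 6. The shares of all tested genes called higher were 34.1%, 53.2%, 14.1% and 27.2% in that order. Leaving out 1 library gave 7 to 9 higher and 18 to 22 lower, where 31.2% to 33.9% and 29.9% to 31.7% of all tested genes were. Sbpl, which passed the filter through wild-type libraries alone, was among the related genes tested there.

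The ratio of Amd1 to Odc1 (0.34) was -0.0017 without null libraries 4 to 6 and 0.69 without null libraries 1 to 3, and 0.25 to 0.44 without 1 library. Srm to Sms (-0.20) was 0.17 with the length trend removed, 0.18 without null libraries 1 to 3 and -0.59 without null libraries 4 to 6. Sat1 to Paox (0.10) was 0.61 with the length trend removed and then passed (exact permutation test, adjusted p = 0.0195). Odc1 to Oaz1 (-0.60) was -0.23 with summed copies, -0.27 without null libraries 4 to 6 and -0.94 without null libraries 1 to 3. In each of these the cause was not tested. Odc1 to Azin1 and Sat1 to Smox kept their call in all alternatives run. No paired analysis was possible because the labels carry no replicate numbers shared by the genotypes. The library weights fit stopped before full convergence.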

Other observations

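Aoc1, encoding diamine oxidase, which breaks down putrescine and histamine outside cells, was too low for the tests and is named here after its values were seen. It was at 2.30 and 1.81 in the wild-type sets, near the floor of the scale, and at 5.46 in null libraries 1 to 3 and 3.33 in null libraries 4 to 6. The null set with more Aoc1 was the one with the larger seminal vesicle sum, although Svs3a, Svs3b and Svs4 were higher in the other null set. Whether the Aoc1 transcripts came from prostate was not tested. The other list genes that were not tested, Agmat, Otc, Satl1 and Slc22a2, stayed at or below 4.12 in every library.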
